A study of Mus musculus with 6 samples.

Results

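The AIM2-like PYHIN receptors are proteins that carry a pyrin domain, a DNA-binding HIN domain or both. They were examined here as 7 genes of the mouse, Aim2, Ifi203, Ifi204, Ifi205, Mnda, Mndal and Pyhin1, chosen by gene name from a table of 46072 gene identifiers. Each of the 7 was found once. A further 7 genes of the same family stood in the table, so that 14 PYHIN genes were described in all. The study singled out Aim2 in the same comparison, and these libraries were matched to its groups by treatment alone, so the direction of Aim2 is not taken as independent evidence. The question asked was whether its genomic neighbours moved with it.

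AIM2 binds double-stranded DNA in the cytosol through its HIN domain and recruits the adaptor ASC through its pyrin domain. ASC in turn gathers caspase-1, which matures IL-1β and IL-18 and opens the pore protein gasdermin D. Other members of the family are mostly nuclear proteins with roles in DNA sensing, in transcription and in the growth and differentiation of myeloid cells. Most PYHIN genes are induced by interferon, and in the mouse they lie side by side on chromosome 1.

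RNA was from splenic monocytes of female C57BL/6 mice aged 8 to 10 weeks, 1 library per mouse, purified by negative selection and not stimulated in culture. The 3 Con mice received water by gavage for 6 days. The 3 Van mice received vancomycin, 2 mg per mouse per day in a pair of gavages, for the same 6 days. The sample labels give a rest of 6 to 8 days without antibiotic after the gavages, whereas the study describes a single rest of 8 days for its RNA mice. For its cultures the study combined spleens of a cohort in pairs, and whether this held for the RNA is not given in the sources used here. Each library held between 43383919 and 61834407 estimated counts, and the counts of the 7 members in a library ran from 3008 to 21787. The 15 monocyte markers summed to between 24914 and 27934 CPM, counts scaled to library size, in every library.

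The PYHIN genes span 681 kb of chromosome 1 in GRCm38, chr1:173350879-174031810. Their order is Aim2, Gm4955, BC094916, Pydc4, Pyhin1, Pydc3, AI607873, Ifi204, Gm16340, Mndal, Mnda, Ifi203, Ifi202b and Ifi205. The names are those of the deposited table. In GENCODE M21 the same identifiers are called Ifi206 for Gm4955, Ifi214 for BC094916, Ifi213 for Pydc4, Ifi209 for Pyhin1, Ifi208 for Pydc3, Ifi207 for AI607873, Ifi211 for Mnda and Ifi203-ps, a pseudogene, for Gm16340.

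Promoter sequence was compared across the cluster. RefSeq windows on GRCm38.p6, running from 250 bases before to 50 bases after the transcript start, were matched for 12 of the 14 PYHIN genes, 6 of them members. Ifi204 and Gm16340 were not matched. The core of the interferon-stimulated response element, GAAANNGAA, on either strand, was in 10 of the 14 windows of these 12 genes, against 8.56% of 32851 mouse promoter windows, and in at least 1 window of 9 genes. It was present in Ifi203, Ifi205, Mnda and Mndal and was not found in the windows of Aim2 and Pyhin1. The RefSeq starts of Aim2 and Mndal lie inside their annotated spans, so the bases before their annotated 5′ ends were not searched. The core is printed for each of the 9 genes with 12 bases on both sides, 5′ to 3′ on the strand of the gene, in capitals. These stretches are shown because the bases around the core are also alike from gene to gene:
Ifi203, chr1:173942507-173942539, minus strand: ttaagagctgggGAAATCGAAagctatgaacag
Mndal, chr1:173880203-173880235, minus strand: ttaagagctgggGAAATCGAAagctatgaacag
Mnda, chr1:173913063-173913095, minus strand: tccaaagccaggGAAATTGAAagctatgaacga
Ifi205, chr1:174031869-174031901, minus strand: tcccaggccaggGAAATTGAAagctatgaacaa
AI607873, chr1:173741830-173741862, minus strand: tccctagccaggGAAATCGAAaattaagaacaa
Gm4955, chr1:173491338-173491370, minus strand: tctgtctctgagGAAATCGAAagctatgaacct
Pydc4, chr1:173599325-173599357, minus strand: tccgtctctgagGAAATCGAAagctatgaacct
Pydc3, chr1:173673595-173673627, plus strand: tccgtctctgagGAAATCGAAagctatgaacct
BC094916, chr1:173536016-173536048, minus strand: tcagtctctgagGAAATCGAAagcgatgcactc

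The core began 35 bases before the transcript start in Ifi203, 36 in Mndal, 37 in Mnda and 134 in Ifi205. Ifi203 and Mndal each have 2 RefSeq windows. For Ifi203 the core was in the window of the inner start alone, and the window of the start at the annotated end of the gene held none. Ifi205 held a second match in its window and Mndal a second match in its other window, both on the opposite strand. Pyhin1 has a stretch at chr1:173630768-173630800, plus strand, with 30 of 33 bases identical to that of BC094916, but without the core:
Pyhin1: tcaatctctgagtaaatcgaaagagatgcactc

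The 250 bases before the Aim2 start in RefSeq, chr1:173420354-173420603 on the plus strand, are printed because Aim2 is the gene from which the comparison starts. They held none of the interferon core and 1 match to GAGGAAGT, a site of the myeloid factor PU.1, in capitals, which 2.44% of all such stretches of 250 bases hold:
Aim2: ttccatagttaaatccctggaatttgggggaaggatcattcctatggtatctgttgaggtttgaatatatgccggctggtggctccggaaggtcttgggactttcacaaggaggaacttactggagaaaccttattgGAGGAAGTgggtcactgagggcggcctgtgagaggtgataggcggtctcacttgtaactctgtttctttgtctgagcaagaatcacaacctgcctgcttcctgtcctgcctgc
The AP-1 site TGANTCA was in the windows of Ifi203, Mndal and Pyhin1 (7.81% of all windows), and the STAT site TTCNNNGAA in that of Ifi202b alone among PYHIN genes (8.3% of all windows). A match describes the letters and not a binding event.

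Levels were compared between members per length. In the Con group the order by FPKM, the fragments scaled to transcript length and library size, was Ifi204 (136 ± 4.02), Mndal (128 ± 3.22), Mnda (82.7 ± 3.44), Ifi203 (78.3 ± 3.99), Pyhin1 (76.9 ± 5.63), Aim2 (55.6 ± 5.28) and Ifi205 (42.4 ± 0.765; SD, n = 3 mice each). Mnda, Ifi203 and Pyhin1 overlapped between mice and were not separated by their spread. Ifi204 and Mndal were near each other, with 132 FPKM in the lowest mouse for Ifi204 against 131 in the highest for Mndal. Aim2 lay below these genes and above Ifi205 in every Con mouse.

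In the Van group the order was Ifi204 (114 ± 7.85 FPKM), Mndal (96.5 ± 4.70), Pyhin1 (70.0 ± 11.3), Mnda (64.1 ± 4.77), Ifi203 (52.0 ± 5.41), Aim2 (41.4 ± 2.15) and Ifi205 (31.7 ± 3.15). Pyhin1 and Mnda overlapped. Ifi203, which overlapped Mnda among the Con mice, was below it in Van, with 56.0 FPKM in its highest mouse against 59.3 in the lowest for Mnda. Summed over the 7 members, the level was 590.4, 602 and 608 FPKM in the Con mice and 439.6, 470.0 and 499 FPKM in the Van mice. The sum was thus 21.8% lower in Van (599.9 ± 8.79 against 469 ± 29.5 FPKM, SD), without overlap. In RNA of a bulk population, fewer cells of a type and less RNA per cell cannot be told apart.

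Most of the family was lower in the Van group. All 7 members had a negative log2 fold change, which 50.4% of the 16138 genes tested had, and for 6 of the 7 every Van mouse was below every Con mouse in CPM, against 11.0% of all genes. Of the 7, 5 were called lower at an adjusted p of at most 0.05 in the quasi-likelihood test of edgeR, adjusted by the Benjamini-Hochberg method, against 0.917% of all genes tested. The median log2 fold change was -0.40 over the members and 0.00 over all genes. Aim2, from whose reported fall the question started, is included in each of these counts and in the median. The members lie in 1 cluster and share sequence, and they are not independent of each other. The plots of CPM by mouse show these values for each member.

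**Figure D1:**
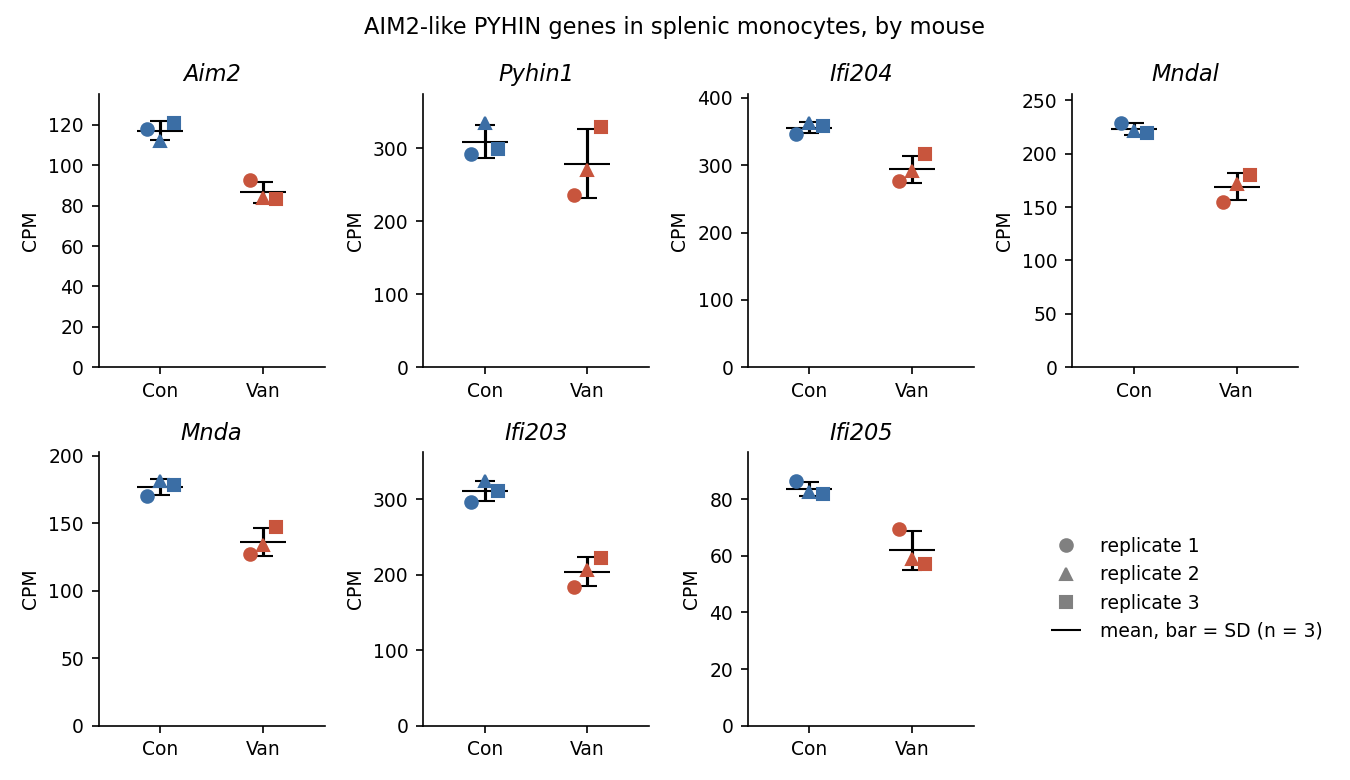
Counts scaled to library size (CPM, linear axis from 0) of the 7 members in each mouse, Con in blue and Van in red, with marker shapes for the replicate numbers and black lines for the mean and SD (n = 3). The groups do not overlap for 6 members, and overlap for Pyhin1, where a Van mouse at 329.8 CPM is close to the highest Con mouse at 335 CPM.

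Aim2, the inflammasome sensor, measured 118, 112 and 121 CPM in the Con mice and 92.6, 83.9 and 83.1 CPM in the Van mice. All Van mice were below all Con mice. On the log2 scale it fell by 0.44 with a standard error of 0.07 (edgeR, adjusted p = 0.0223), from 117 ± 4.73 to 86.5 ± 5.29 CPM (SD, n = 3), which is 26.1% lower. This call was kept in 1 of the 6 fits with a library left out (adjusted p between 0.0321, without Van replicate 1, and 0.12, without Van replicate 2). It was lost in limma (adjusted p = 0.0964 on log2(FPKM + 1) values and 0.152 on log2(FPKM + 0.1) values). Unlike the other 6 members, Aim2 has no near-identical copy among the PYHIN transcripts. The gene, chr1:173350879-173466040 on the plus strand, overlaps Cadm3 on the opposite strand, with no shared exonic base.

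Ifi203, which encodes a nuclear HIN protein, showed the largest fall of the 7 in edgeR. It measured 297, 324 and 311 CPM in Con and 184, 206 and 222 CPM in Van. The groups did not overlap, and edgeR gave a log2 fold change of -0.61 ± 0.08 (standard error) with an adjusted p of 0.0131. Ifi203 was 34.4% lower in Van.

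Mndal and Mnda lie next to Ifi203, and the annotated span of Mndal, chr1:173849126-173942491, covers Mnda and overlaps Ifi203, which ends beyond it at position 173942672. Mndal encodes a nuclear protein that restrains cell growth. It measured 229, 221 and 219 CPM in Con and 155, 172 and 180.1 CPM in Van. This is -0.40 ± 0.07 on the log2 scale (standard error), called by edgeR at an adjusted p of 0.0295. Mnda, which carries the name of the human myeloid nuclear differentiation antigen, measured 169.9, 181 and 178 CPM in Con and 127, 134 and 147 CPM in Van. Its fall was of like size, at -0.38 ± 0.07 on the log2 scale (standard error) and an adjusted p of 0.0337 from edgeR. For both genes the groups were separate.

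Ifi205 lies at the far end of the cluster, where its lowest coordinate is 661 kb from the start of Aim2. The gene encodes a protein known to control transcription of the ASC gene in macrophages. It measured 86.3, 82.4 and 81.9 CPM in Con and 69.6, 59.0 and 57.0 CPM in Van. The groups did not overlap, and the log2 fold change of -0.43 ± 0.08 (standard error), which edgeR called at an adjusted p of 0.0403, was nearly that of Aim2.

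Ifi204, a DNA sensor linked to STING signalling and to macrophage differentiation, was the most highly expressed member and did not pass the test. It measured 347, 363 and 358 CPM in Con and 276, 292 and 316 CPM in Van. These groups also stood apart, at 17.4% lower in Van, but the log2 fold change of -0.28 (standard error 0.06) had an adjusted p of 0.0653 from edgeR. DESeq2's Wald test, which the study names, called it with an adjusted p of 0.0018.

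Pyhin1, a HIN gene of the middle of the cluster, was the member with overlapping groups. It measured 292, 335 and 299.6 CPM in Con and 236, 270.0 and 329.8 CPM in Van. The highest Van mouse lay inside the Con range, and edgeR gave a log2 fold change of -0.15 ± 0.12 (standard error) with an adjusted p of 0.59. Leaving out that mouse, Van replicate 3, gave -0.29 with an adjusted p of 0.218 from edgeR, and leaving out Van replicate 1 gave -0.04.

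Calls were lost when a library was left out, while the log2 fold changes kept their sign. In these fits, edgeR called 1 member without Con replicate 1, and 0 when Con replicate 2 or Con replicate 3 was left out. It called 3 members in the absence of Van replicate 1, 0 in that of Van replicate 2 and 2 in that of Van replicate 3. Over the 6 fits Ifi203 was called in 3, Aim2, Mnda and Ifi205 in 1 each and Mndal in 0. Over all genes tested the calls went down as well, from 322 to between 21 and 136. In each of these fits all 7 members were lower in Van, and at least 6 had an unadjusted p under 0.05, as did between 11.9% and 15.3% of all genes tested. With all 6 libraries in edgeR this share was 16.5% of all genes. With limma on log2(FPKM + 1) values, 0 members and 21 genes in all were called, and 6 members and 15.6% of all genes had an unadjusted p under 0.05.

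**Figure D2:**
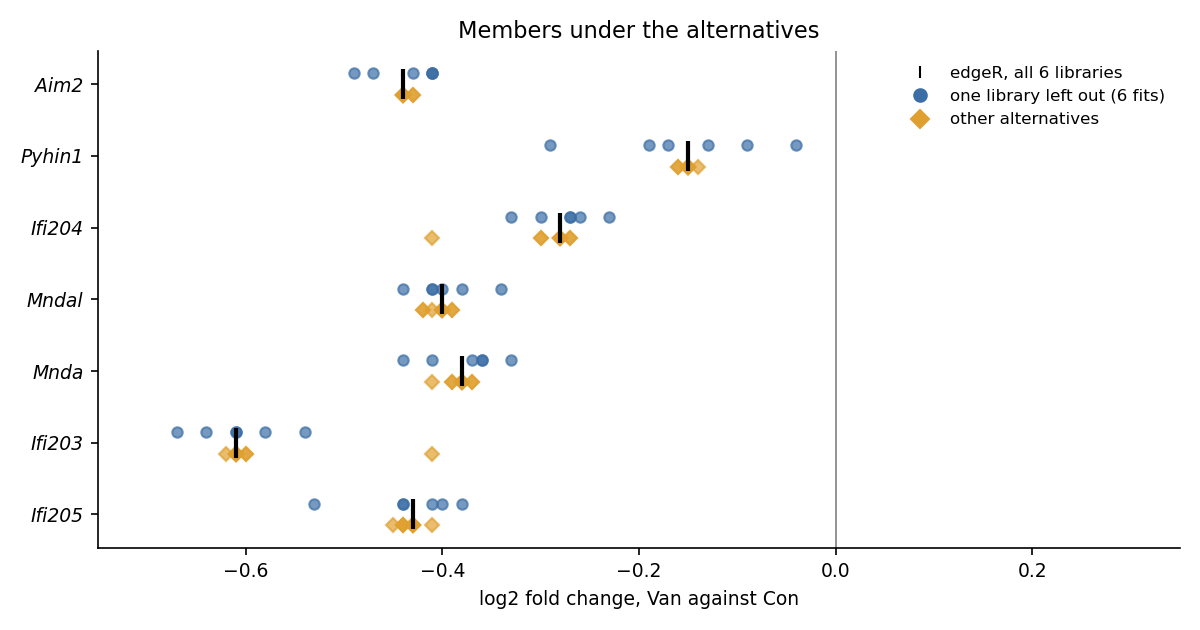
Log2 fold change of each member in Van against Con (horizontal axis) in edgeR with all 6 libraries (black bars), with one library left out in turn (blue circles) and under the other alternatives (yellow diamonds). Every point is below 0, and the lone diamonds at -0.41 for Ifi204 and Ifi203 are the values of the summed near-identical copies.

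Several members are near-identical copies, taken here as transcripts that match over at least 200 bases at 95% identity, so that reads could be divided among them. Transcripts of Mnda match Ifi204 over 1363 bases at 96.9% identity, Ifi205 over 1101 bases at 97.4% and Mndal over 1070 bases at 95.4%. Ifi203 matches Mndal over 762 bases at 96.1% and shares 37 exonic bases with it on the same strand, and it matches the pseudogene Gm16340 over 1799 bases. Pyhin1 matches BC094916 over 1946 bases at 96.9%. Counts of single genes among these are therefore uncertain. When Ifi204, Gm16340, Mndal, Mnda, Ifi203 and Ifi205 were summed to 1 feature, its counts fell by 0.41 on the log2 scale (adjusted p = 0.0196 from edgeR).

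The change of Aim2 was then set against that of each other member, as the log2 ratio of their CPM within a mouse, which does not depend on library size. Against Ifi205 the ratio was 0.45, 0.44 and 0.56 in the Con mice and 0.41, 0.51 and 0.54 in the Van mice. The groups overlapped, and their difference was 0.00 (standard error 0.06, exact permutation p = 1). The difference in the ratio was -0.04 (standard error 0.12) against Mndal and -0.06 (standard error 0.12) against Mnda. It was 0.17 (standard error 0.14) against Ifi203, which was lowered more than Aim2 in the point estimate, and -0.16 (standard error 0.11) against Ifi204. Without Van replicate 1 the difference was 0.05 against Ifi203 and -0.26 against Ifi204, and without Van replicate 3 it was 0.27 and -0.08.

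Against Pyhin1 the ratio was -1.31, -1.58 and -1.31 in Con and -1.35, -1.69 and -1.99 in Van, a difference of -0.28 (standard error 0.21), which became -0.44 without Van replicate 1 and -0.12 without Van replicate 3. For all 6 pairs the groups overlapped, with exact two-sided permutation p-values between 0.2 and 1 and adjusted p-values from 0.6 to 1. With 3 mice against 3 the smallest p that this test can give is 0.10, so that no pair could have passed 0.05. The p-values therefore do not say whether Aim2 and its relatives changed alike, and the differences stand with their standard errors alone.

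Within the Van group the members did not vary in one way. Ifi203, Ifi204, Mnda, Mndal and Pyhin1 were lowest in Van replicate 1 and highest in Van replicate 3, whereas Aim2 and Ifi205 were highest in replicate 1 and lowest in replicate 3. Relative to the Con mean on the log2 CPM scale, Aim2 was at -0.34, -0.48 and -0.49 in the Van mice and Ifi203 at -0.75, -0.59 and -0.48. This split is a description of 3 mice.

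**Figure D3:**
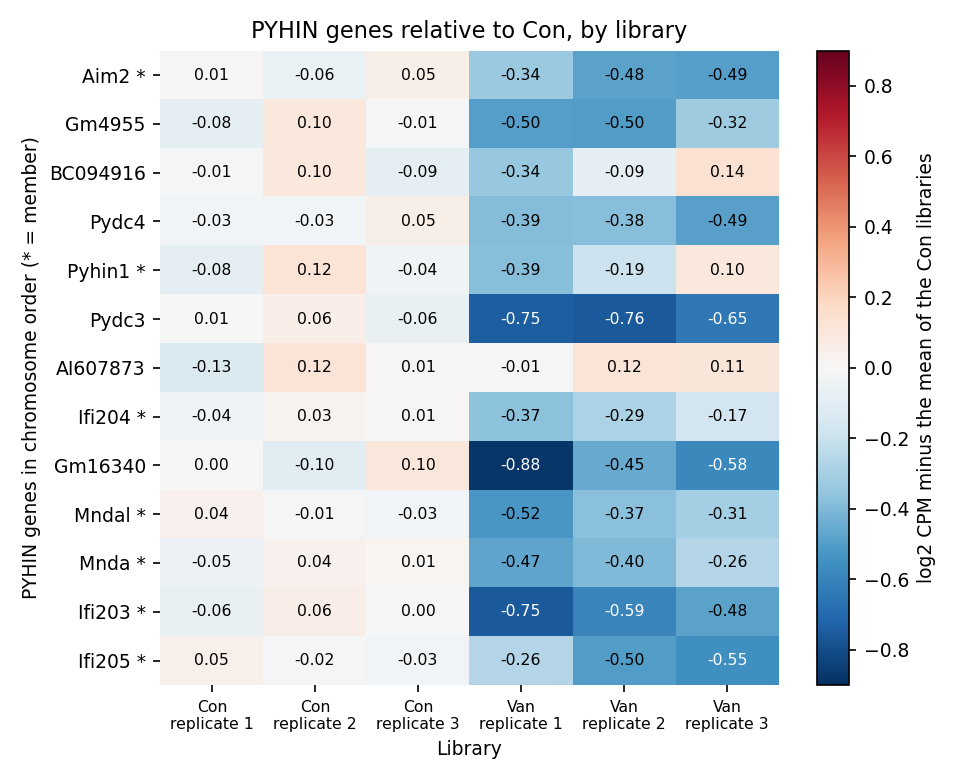
Log2 CPM of the 13 tested PYHIN genes in each library minus the mean of the Con libraries, in chromosome order from Aim2, with members marked by an asterisk and the colour scale in log2 units. Van cells are below 0 for all genes but Pyhin1 and BC094916 in Van replicate 3 and AI607873 in Van replicates 2 and 3, and the Con cells lie between -0.13 and 0.12.

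Among the other PYHIN genes of the cluster, 3 were called lower as well. Of the 7, Ifi202b, whose expression is known to differ between mouse strains, had a count of 0 in all 6 libraries, and 6 were tested. Of these 6, 5 had a negative log2 fold change (50.4% of all genes), and 0.917% of all genes were called lower. The 3 called lower were Pydc3, Pydc4 and Gm4955, which are near-identical copies of each other, so that reads could be divided among them and their values are not independent. Transcripts of Pydc3 match Pydc4 over 2749 bases at 96.4% identity, and those of Gm4955 match Pydc4 over 448 bases and Pydc3 over 345 bases. Summed to 1 feature, the 3 genes were at -0.44 ± 0.05 on the log2 scale (standard error; edgeR, adjusted p = 0.00949). Pydc3 measured 10.7, 11.1 and 10.2 CPM in Con and 6.36, 6.31 and 6.81 CPM in Van, at -0.72 ± 0.10 (log2 scale, standard error) and an adjusted p of 0.0175. Pydc4 measured 44.7, 45.4 and 48.5 FPKM in Con and 35.1, 36.6 and 32.7 FPKM in Van, and its log2 fold change in the counts was -0.42 with an adjusted p of 0.0173 in edgeR.

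Gm4955, the nearest PYHIN gene to Aim2, measured 52.0, 58.8 and 54.5 CPM in Con and 39.0, 38.8 and 44.1 CPM in Van, and was at -0.44 on the log2 scale (edgeR, adjusted p = 0.0323). The pseudogene Gm16340 was at -0.62 on the log2 scale (edgeR, adjusted p = 0.0573). Its mean was 10.5 ± 0.735 CPM among Con mice and 6.81 ± 1.00 CPM among Van mice (SD, n = 3), without overlap. With 1 library left out, edgeR called Gm4955 in 0 of 6 fits and Pydc3 and Pydc4 in 2 of 6 each, and limma called 0 of these 3 genes.

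AI607873 and BC094916 overlapped between the groups. AI607873 measured 267, 317 and 294 CPM in Con and 289.7, 317 and 315 CPM in Van, and edgeR put its log2 fold change at 0.07 ± 0.07 (standard error) with an adjusted p of 0.702. Its level per length in Con was 70.5 FPKM, near that of Pyhin1. It has no near-identical copy and carries the interferon core printed for its promoter. BC094916, the near-identical copy of Pyhin1, was at -0.09 ± 0.12 (standard error), for which edgeR gave an adjusted p of 0.796. Across the cluster, the genes whose groups overlapped were Pyhin1, BC094916 and AI607873. They lie in its middle, with lowest coordinates between 169 and 373 kb from the start of Aim2. Pydc4 and Pydc3, both called lower, lie among them.

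**Figure D4:**
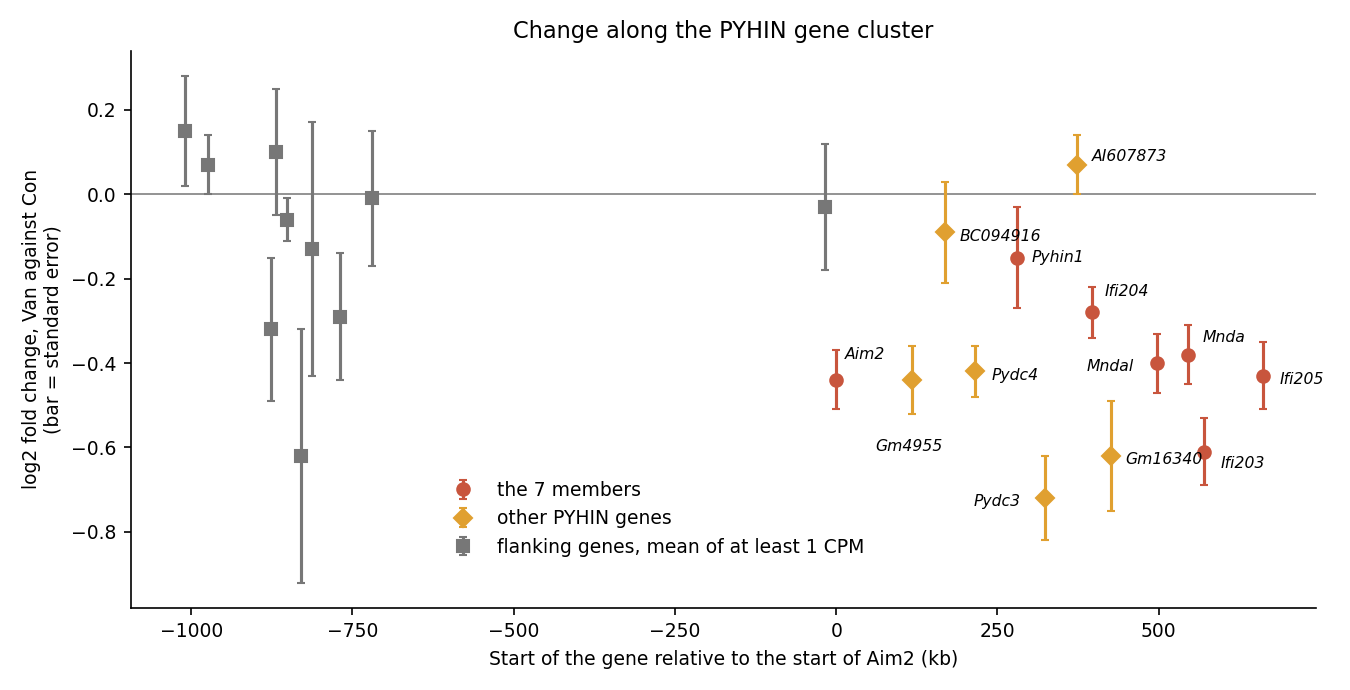
Log2 fold change in Van against Con (bars are standard errors of the edgeR fit) by the start of each gene relative to that of Aim2 in kb, for the members (red circles), other PYHIN genes (yellow diamonds) and genes outside the family within 1 Mb that had a mean of at least 1 CPM (grey squares). Start here means the lowest coordinate of a gene, whatever its strand. AI607873, at 0.07, is the single PYHIN gene above 0, and Cadm3, beside Aim2, is at -0.03.

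Genes of other families around the cluster were not called. Within 1 Mb of its ends, 67 such genes were annotated and 17 passed the filter on low counts. Of these 17 genes, 0 were called by edgeR, 2 (Gm37125 and Ackr1) had an unadjusted p under 0.05, and 11 had a negative log2 fold change. Over all genes that p was reached by 16.5%. DESeq2 and limma also called 0 of the 17, with 4 and 2 at an unadjusted p under 0.05, against 11.5% and 15.6% of all genes in these fits (limma on log2(FPKM + 1) values). Cadm3, the adhesion gene that overlaps the Aim2 locus, measured 20.4, 13.6 and 16.7 CPM in Con and 18.2, 16.4 and 15.1 CPM in Van, which is -0.03 ± 0.15 on the log2 scale (standard error). Ackr1, the Duffy chemokine receptor, has its lowest coordinate 19 kb before that of Aim2. It was low, with 1.13 ± 0.0727 CPM among Con mice and 0.522 ± 0.105 CPM among Van mice (SD, n = 3). Its log2 fold change was -1.10 with an adjusted p of 0.115 from edgeR.

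Tagln2 and the SLAM family gene Slamf8, further off, had log2 fold changes of -0.06 and -0.29. Kcnj10, Pigm, Igsf9, Dusp23, Slamf9, Cfap45 and 4933439K11Rik were between -0.62 and 0.15. The remaining 6 were below 1 CPM on average. Of these, Gm37125 was at -2.02 (adjusted p = 0.14 from edgeR), and Gm37145, Gm18752, Gm18445 and Olfr433 were between -0.35 and 0.52.

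The inflammasome list held 15 genes that act in the AIM2 inflammasome, upstream of it or beside it. All were tested, and 11 had a negative log2 fold change and 0 were called by edgeR. Their median was -0.17, and 4 had an unadjusted p under 0.05, against 16.5% of all genes. DESeq2 called 2 of them and limma 0. Casp1, the protease of the inflammasome, was nearest to a call. It measured 106, 103 and 102 CPM in Con and 81.9, 78.9 and 89.8 CPM in Van, without overlap, with a log2 fold change of -0.31 (standard error 0.06) and an adjusted p of 0.050006 from edgeR. Zbp1, a sensor of Z-form nucleic acids, was at -0.46 (adjusted p = 0.0849 from edgeR) and Casp4, the protease of the non-canonical pathway, at -0.24 (adjusted p = 0.216 from edgeR). The cytokine gene Il1b was at -0.19 and the transcription factor gene Irf1 at -0.34, both with overlapping groups.

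The other pathway of cytosolic DNA sensing, cGAS and STING, had values on both sides of 0. Of 25 listed genes 24 were tested, 15 with a negative log2 fold change, and the median was -0.03. By edgeR a single gene was called, with 8 at an unadjusted p under 0.05 (16.5% of all genes), whereas DESeq2 called 3 and limma 0. The gene was Dhx9, a helicase, which rose from 181 ± 9.14 to 227 ± 7.42 CPM (SD, n = 3; log2 fold change 0.32, adjusted p = 0.0368 from edgeR), and 1.08% of all genes were called higher. The dNTP hydrolase gene Samhd1 was at -0.24 (adjusted p = 0.109 from edgeR) and Irf7, a transcription factor of the interferon response, at -0.19 (adjusted p = 0.136 from edgeR).

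Receptors and transcription factors of the interferon pathways also lay on both sides of 0. Of 14 genes, 6 had a negative log2 fold change, the median was 0.02 and 0 were called by edgeR, with 4 at an unadjusted p under 0.05 (16.5% of all genes). DESeq2 called 1 and limma 0. Stat2 was at -0.27 (adjusted p = 0.104 from edgeR) and Irf8 at -0.17 (adjusted p = 0.265 from edgeR). The receptor gene Ifngr1 was at 0.09, and Spi1, which encodes PU.1, at -0.01.

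Interferon-induced genes outside the PYHIN family were mostly lower in Van. Of 25 comparators, all tested, 23 had a negative log2 fold change, 14 had every Van mouse below every Con mouse and 5 were called lower by edgeR, against 50.4%, 11.0% and 0.917% of all genes. At an unadjusted p under 0.05 there were 16 of the 25 (16.5% of all genes), and DESeq2 called 9 and limma 0. Their median was -0.24, against -0.40 for the members. Ifit2, an RNA-binding antiviral gene, measured 60.9, 52.0 and 62.4 CPM in Con and 39.8, 33.8 and 30.8 CPM in Van (log2 fold change -0.75, adjusted p = 0.02 from edgeR). Ifit3 of the same family fell by 0.62 on the log2 scale (adjusted p = 0.0223 from edgeR).

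The GTPase gene Mx1 fell by 0.41 (adjusted p = 0.0259 from edgeR), the RNA sensor gene Ifih1 by 0.37 (adjusted p = 0.03 from edgeR) and Oasl2 by 0.36 (adjusted p = 0.0416 from edgeR), all on the log2 scale. Ifi27l2a and Bst2, which had the highest FPKM of the list, were at -0.20 and 0.06. Over the 4 lists, of which 2 hold Irf1, 6 calls were made by edgeR. Without Con replicate 1, 2 or 3 the calls over the lists were 3, 1 and 0, and without Van replicate 1, 2 or 3 they were 2, 0 and 0.

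**Figure D5:**
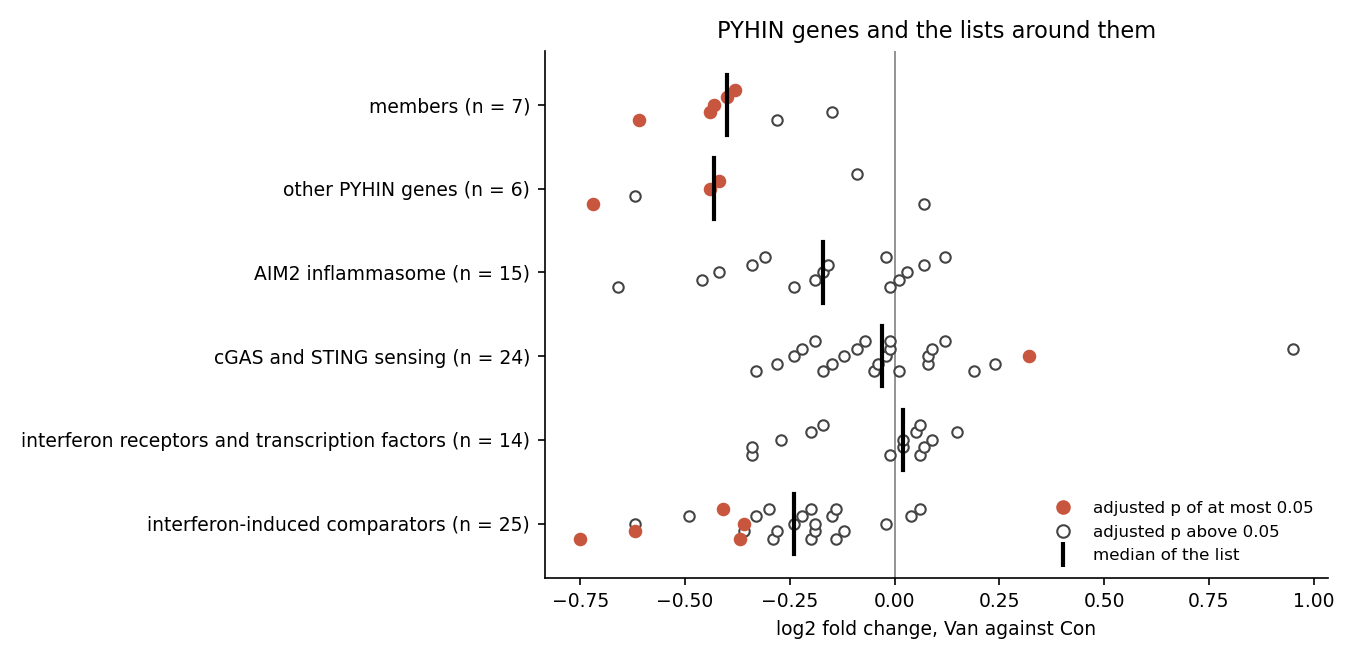
Log2 fold change in Van against Con of each tested gene (points, filled red where the adjusted p from edgeR was at most 0.05) in the members, the other PYHIN genes and 4 lists, with a black bar at the median of each. The medians are -0.40 for the members, -0.43 for the other PYHIN genes, -0.24 for the interferon-induced comparators and 0.02 for the interferon receptors and transcription factors.

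Summed markers of B cells, NK cells, erythroid cells and neutrophils were separate between the groups. Those of T cells, plasma cells, dendritic cells and red pulp macrophages overlapped. Of all genes tested, 50.4% were lower, 11.0% had every Van mouse below every Con mouse and 16.5% had an unadjusted p under 0.05. By edgeR 0.917% of all genes were called lower and 1.08% higher, and DESeq2 called 983 of 23584. The B cell markers summed to between 47.9 and 49.9 CPM in Con and between 37.2 and 40.4 CPM in Van, with 9 of 9 tested markers lower and 0 called by edgeR (2 at an unadjusted p under 0.05), 1 by DESeq2 and 0 by limma. NK cell markers summed to 27.9 to 41.4 CPM against at most 23.9 CPM. Most of this sum was Klrk1, which edgeR and DESeq2 called lower and limma did not (38.2, 24.7 and 31.2 CPM in Con, at most 20.8 CPM in Van), and the other listed NK genes were at most 2.06 CPM in any library. Of 6 tested NK markers 4 were lower and 2 higher (Klrb1c at 0.43 and Gzmb at 0.53 on the log2 scale). Dendritic cell markers summed to 130.5 to 155 CPM against 121 to 133 CPM, and 8 of 9 tested were lower, 5 of them without overlap and 6 of the 9 at an unadjusted p under 0.05. Of these edgeR called Clec9a alone, DESeq2 called 4 and limma 0. Erythroid markers summed to 81.5 to 169 CPM in Con and 283 to 624 CPM in Van, with 6 of 9 called higher by edgeR and by DESeq2 and 0 by limma.

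Neutrophil markers summed to 353 to 403 CPM in Con and 410.0 to 473 CPM in Van, although 6 of 8 tested were lower, their median was -0.55 on the log2 scale and 0 were called by edgeR (2 at an unadjusted p under 0.05), 1 by DESeq2 and 0 by limma. The sum was mostly Csf3r, at 332, 337 and 312 CPM in Con and 374, 387 and 380.2 CPM in Van, and Mmp8, at 35.7, 60.5 and 30.4 CPM against 33.8, 55.7 and 89.5 CPM. Retnlg, a low neutrophil gene, was at -2.59 (adjusted p = 0.0904 from edgeR). Red pulp macrophage markers summed to 3772 to 4496 CPM against 4398 to 5628 CPM, with 10 of 10 of the latter higher and 0 called by edgeR (6 at an unadjusted p under 0.05), 2 by DESeq2 and 0 by limma. T cell and plasma cell markers overlapped, at 43.5 to 57.6 against 33.7 to 45.7 CPM and 405 to 435 against 399.9 to 428 CPM, with 8 of 9 and 4 of 6 tested lower and 0 called by edgeR (1 and 2 at an unadjusted p under 0.05). DESeq2 called 0 of the T cell and 1 of the plasma cell markers, and limma 0 of both. Of the listed markers, 1 of dendritic cells and 1 of neutrophils were at 0 in every library. Among the 15 monocyte markers, 6 had an unadjusted p under 0.05 (16.5% of all genes), DESeq2 called 4, limma 0 and edgeR 1. The last was the chemokine receptor gene Ccr2 of classical monocytes, which measured 757, 757 and 679.6 CPM in Con and 316, 444 and 473 CPM in Van (log2 fold change -0.83, adjusted p = 0.0283 from edgeR). Of the 15, 5 had groups without overlap, 3 of them below and 2 above Con. Over all 16138 genes tested, 1775 were below and 1851 above Con in this way. Besides Ccr2, Itgam and Cx3cr1 were below the Con mice in every Van mouse, at -0.21 and -0.17 on the log2 scale (adjusted p = 0.0741 and 0.372 from edgeR), and Cd14 and Treml4 were above them, at 0.28 and 0.19 (adjusted p = 0.101 and 0.256). Ccr2 was lowest in Van replicate 1 and highest in Van replicate 3, as Ifi203, Ifi204, Mnda, Mndal and Pyhin1 were. Ly6c2, Fn1, Lyz2 and Itgam had the same order. Fcgr4, Nr4a1, Cd300e, Spn, Treml4 and Csf1r were highest in Van replicate 1 and lowest in Van replicate 3, as Aim2 and Ifi205 were. The other listed monocyte markers had neither order. The part of the listed cell types in the levels of the PYHIN genes was not tested.

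The genes whose pattern over the 6 libraries was most like that of Aim2 were outside the family. Among 12683 genes with a mean of at least 1 CPM, likeness was taken as the root mean square distance between log2 CPM values centred on the mean of each gene. The nearest were Arhgap17 (0.036), Mtmr1 (0.041), a lipid phosphatase, Megf9 (0.044), Pcnx (0.044) and the transporter gene Mfsd7b (0.047). Their log2 fold changes ran from -0.48 to -0.37. Pydc4 and Ifi205 were at ranks 7 and 8, whereas Mndal was at 285, Mnda at 304, Gm4955 at 345, Ifi204 at 509, Ifi203 at 1140 and Pyhin1 at 5111. Genes with nearly the same log2 fold change as Aim2, such as Gm4955 at -0.44, could rank far from it. The distance thus holds the spread within groups as well as the difference between them.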

How the data were processed

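Messenger RNA of splenic monocytes was analysed in 3 Con and 3 Van libraries. The study's data statement names another deposit, and the third group of the study was not analysed here. The authors aligned reads of a stranded kit to GRCm38 with HISAT2 2.2.1 and quantified them with StringTie 2.1.3. They deposited estimated counts per gene, not scaled to depth, and FPKM values, scaled to length and depth. The annotation release, the treatment of reads with several alignments and the use of strand are not given in the sources used here.

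Estimated counts were rounded and fitted in R 4.3.3 with edgeR 4.0.16 (TMM, minimum count of 10, quasi-likelihood test, group as the only term) over all genes, with Benjamini-Hochberg adjustment and calls at 0.05. CPM values use the same normalized library sizes, and the SD is over 3 mice. Ratios were tested by exact permutation. Near-identical copies were found with BLAST+ 2.17.0 in GENCODE M21 transcripts. The tests of edgeR, DESeq2 and limma were also run on simulated counts with known changes, limma there on log2(CPM + 1) values. A pass was required of edgeR alone. The permutation test was checked on a made-up set of values. The alternatives were DESeq2 1.42.0, limma 3.58.1 on log2(FPKM + 1) or log2(FPKM + 0.1), other scalings and filters, counts scaled to fragments, one identifier per symbol, summed copies, the replicate number as a block and each library left out. Ratios of FPKM, ratios without each library and those for other PYHIN genes were added after the data were seen.

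The members and lists were chosen with earlier results of these data known. Named are all PYHIN genes, tested genes within 1 Mb, and in each list the genes called, the 3 with the smallest p and the 2 with the highest mean FPKM, and the 5 genes nearest to Aim2. Some genes that this rule names are not reported here. Cell type markers that were called or that carried a sum, Retnlg, Klrb1c and Gzmb were chosen after values were seen. So were monocyte markers without overlap or named for their order in Van, and Cadm3, Ackr1 and AI607873 as singled-out genes. The identifiers were matched to current names by GENCODE M21. Nothing states that libraries came from separate cages, and p-values measure the spread between these mice.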

Additional observations from a re-analysis of the deposited data

How the results depend on the processing

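All 7 members were lower in Van under each of the 17 alternatives run. Against 5 members called by edgeR, limma called 0 on log2(FPKM + 0.1) values, where 4 genes were called in all, and 0 on log2(FPKM + 1) values, where 21 were called, 3 of them lower in Van. In both, 6 members had an unadjusted p under 0.05. DESeq2 called 6 members and 983 genes. With the near-identical copies summed, 2 features were called, Aim2 and the sum, which holds 5 members, so that 6 members stand under a call. With 1 library left out, between 0 and 3 members and between 21 and 136 genes were called, and at least 6 members had an unadjusted p under 0.05, as did 11.9% to 15.3% of all genes. The replicate numbers did not pair the mice (correlations of same-numbered deviations of 0.025, -0.002 and -0.073, with 1 of 6 libraries nearest to its own number). With the replicate number as a block, 1 member (Ifi203), 1 gene of the 4 lists and 110 genes in all were called, and Aim2 had an adjusted p of 0.0505. Over the 4 lists, against 6 calls by edgeR, DESeq2 made 15, limma 0 with either pseudocount (26 and 23 genes at an unadjusted p under 0.05 for 1 and 0.1), and the fits without 1 library between 0 and 3. The difference between the change of Aim2 and that of Mndal and Mnda turned to 0.04 and 0.03 without Van replicate 3 and was -0.15 for both without Van replicate 1, that of Ifi205 lay between -0.03 and 0.04, and the remaining pairs kept their sign but not their size, at -0.44 to -0.12 for Pyhin1, -0.26 to -0.08 for Ifi204 and 0.05 to 0.27 for Ifi203, with the ends reached without Van replicate 1 and without Van replicate 3. The interferon core was in the promoters of 9 PYHIN genes with the bases before the start alone. For the calls lost, the cause was not tested beyond the smaller number of libraries in those fits. Each member had at least 3008 estimated counts in every library.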

Other observations

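AI607873 was set against Aim2 after its values were seen, with 5 other PYHIN genes. The log2 ratio of Aim2 to AI607873 CPM was -1.17, -1.50 and -1.28 in the Con mice and -1.65, -1.92 and -1.92 in the Van mice, without overlap. The difference was -0.51 (standard error 0.13, exact two-sided permutation p = 0.10, the smallest that 3 against 3 can give, and 0.3 adjusted over the 6 pairs), and no pair could have passed 0.05 in this test. For Pydc3 the difference was 0.28 (standard error 0.10, exact permutation p = 0.10, adjusted 0.3), and for Gm4955 and Pydc4 it was 0.00 and -0.02. For BC094916 and Gm16340 the differences were -0.34 and 0.20, with overlapping groups. Summed over all 14 PYHIN genes, the level was 759 ± 17.7 FPKM in Con and 611 ± 34.6 FPKM in Van (SD, n = 3), 19.5% lower.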
